A study of Mus musculus with 3 samples.

Results

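Of the GLI3 binding regions listed for mouse forelimb buds at embryonic day E10.5, 406 of the 16854 on autosomes were broad, meaning that the called peak spanned 1000 bp or more. They were 2.41% of the autosomal peaks and held 10.1% of the summed peak length (537550 of 5305750 bp). The members were chosen by peak length, which comes from the same ChIP over input contrast as the enrichment, so length and enrichment are given here as description with no test. GLI3 was immunoprecipitated through a FLAG epitope that an endogenously tagged Gli3 allele adds to the protein. The labels enter the genotype as wild type on a mixed strain background, although the tagged allele is carried by these embryos according to the methods. There were 2 ChIP libraries and 1 input library of E10.5 forelimb buds at 32 to 35 somites, each from limb buds of 2 litters, and a single list of 17149 peaks was used. How the libraries were combined for that list is not given in the sources used here. No other genotype, stage or treatment was compared, pooled limb buds hold many cell types, and the list carries no value per library. The spread between replicates and the exact depth of each library are therefore not known here (the methods state only a minimum depth), and every interval below covers counting error over peaks only.

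The GLI proteins are the zinc finger transcription factors at the end of the Hedgehog pathway. Without ligand, GLI3 is processed to a repressor that binds a short consensus and holds down target genes, and ligand binding to the PTCH1 receptor frees Smoothened to stop that processing. In the limb bud, Sonic hedgehog from the posterior margin sets digit number and identity largely by relieving GLI3 repression. CpG islands are stretches of GC-rich DNA that kept their CpG dinucleotides, and they mark most promoters of broadly used and developmental genes.

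Broad peaks included those at central genes of the Hedgehog pathway. The longest spanned 7100 bp of Ptch1 and the next 3550 bp over the start of Gli1. The summit, the base of highest signal, fell in a promoter window in 58.1% of broad peaks (236/406), near a CpG island in 76.1% (309/406) and near a GLI consensus match in 32.3% (131/406). Among the 16448 shorter autosomal peaks these shares were 47.0%, 56.6% and 17.5%. All 406 broad peaks had a false discovery rate under 0.05 in the list. Among the 6789 shorter peaks that also did, the shares were 51.1%, 61.3% and 20.1%.

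The GLI consensus searched for was GACCACCCA on either strand, whose reverse complement is TGGGTGGTC, with at most 1 mismatch. The following stretches are exact matches nearest to the summit in broad peaks at genes named in this text, each read from GRCm38 (mm10) in the direction of the consensus, with the consensus in capitals and 10 bases to either side. The gene is that of the nearest protein-coding transcription start site (TSS).
Ptch1, longest peak: aaagtagagaGACCACCCAggtaggcaac
Ptch1, second peak: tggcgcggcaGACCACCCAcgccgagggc
Smo: acatggtgggGACCACCCAtgtggtagag
Foxf1: gggcgccgccGACCACCCAcagcgaggcc
Gm12830: ccggccgccgGACCACCCAgcgtgcgccc
Dynll1: ctggctcccgGACCACCCAgcagtctgga
Pim1: gagcaaaagaGACCACCCAgctcctggga

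The consensus in the longest Ptch1 peak was at chr13:63566435-63566443 on the plus strand, 17 bp from the summit and within a Ptch1 intron. The one in the second Ptch1 peak was at chr13:63573465-63573473 on the minus strand, 23 bp from the summit, in untranslated sequence of Ptch1. Those of Smo (chr6:29719073-29719081, 55 bp from the summit), Pim1 (chr17:29451158-29451166, 15 bp) and Dynll1 (chr5:115301210-115301218, 57 bp) lay outside protein-coding genes. That of Foxf1 (chr8:121080831-121080839, 128 bp) was in an intron of the predicted gene Gm20388, and that of Gm12830 (chr4:114822026-114822034, 138 bp) in an intron of Gm12830.

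Some of the most enriched broad peaks had no exact match within 250 bp of the summit. At Gli1 and in the peak nearest to Ier2, which had the highest enrichment of all autosomal peaks, the nearest match carried 1 substitution each, C7G and A2C, with the consensus base first and positions counted from 1 at the 5′ end of the consensus. They are printed in the same way, and the Gli1 match was at chr10:127341584-127341592 in untranslated sequence of Gli1, 44 bp from the summit, whereas the other was at chr8:84656190-84656198 between genes, 53 bp from the summit.
Gli1: tccagccctgGACCACGCAtcccgagcac
Ier2: cttttcctgaGCCCACCCAcgagcccaga

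The 201 bases around the summit of the longest peak, chr13:63566322-63566522 on the plus strand, show a single match in a window with 56.7% G and C.
Ptch1 summit: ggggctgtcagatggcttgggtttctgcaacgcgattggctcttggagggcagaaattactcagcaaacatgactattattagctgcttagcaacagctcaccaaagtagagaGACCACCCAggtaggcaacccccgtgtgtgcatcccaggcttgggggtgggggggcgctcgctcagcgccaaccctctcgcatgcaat

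Most broad peaks had no GLI match at the summit. In 215 of the 406 (53.0%), beside 48.2% of shorter peaks, there was a CpG island within 250 bp of the summit and no GLI match in that window, and the longest promoter peak of this kind that has no match anywhere in the peak and no annotated exon around its summit was at Rarg, which encodes retinoic acid receptor gamma. Among promoter peaks alone, an island with no match was present in 66.9% of broad and 79.7% of shorter peaks. The 201 bases around the Rarg summit, chr15:102247917-102248117 on the plus strand, lie in a Rarg intron and hold 14 CpG dinucleotides, shown in capitals.
Rarg summit: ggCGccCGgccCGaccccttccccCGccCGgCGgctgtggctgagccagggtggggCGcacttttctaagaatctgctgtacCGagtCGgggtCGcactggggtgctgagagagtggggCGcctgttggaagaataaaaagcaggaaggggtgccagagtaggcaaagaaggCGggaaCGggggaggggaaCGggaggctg

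The lengths of the broad peaks ran from 1000 to 7100 bp, with a median of 1200 bp and quartiles of 1050 and 1400 bp. Most were just past the threshold: 317 were shorter than 1500 bp, 63 were from 1500 bp to under 2000 bp and 26 were 2000 bp or more. The shorter peaks had a median length of 250 bp. The maximum log2 fold enrichment of ChIP over input, as the list gives it for each peak, had a median of 3.52 in broad peaks (range 2.32 to 6.37) and 2.21 in shorter ones. Of the 100 autosomal peaks ranked highest in the list, 58 were broad, and the lowest-ranked broad peak stood at rank 7179. All 406 broad peaks had a false discovery rate (FDR) under 0.05 in the list, beside 42.7% of all autosomal peaks, and nothing is read from this since length and FDR come from the same contrast. The minimum Poisson p of the list stops at 100 on the −log10 scale, a ceiling reached by 53 broad and 42 shorter peaks, so the strongest broad peaks cannot be ordered by it.

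**Figure D1:**
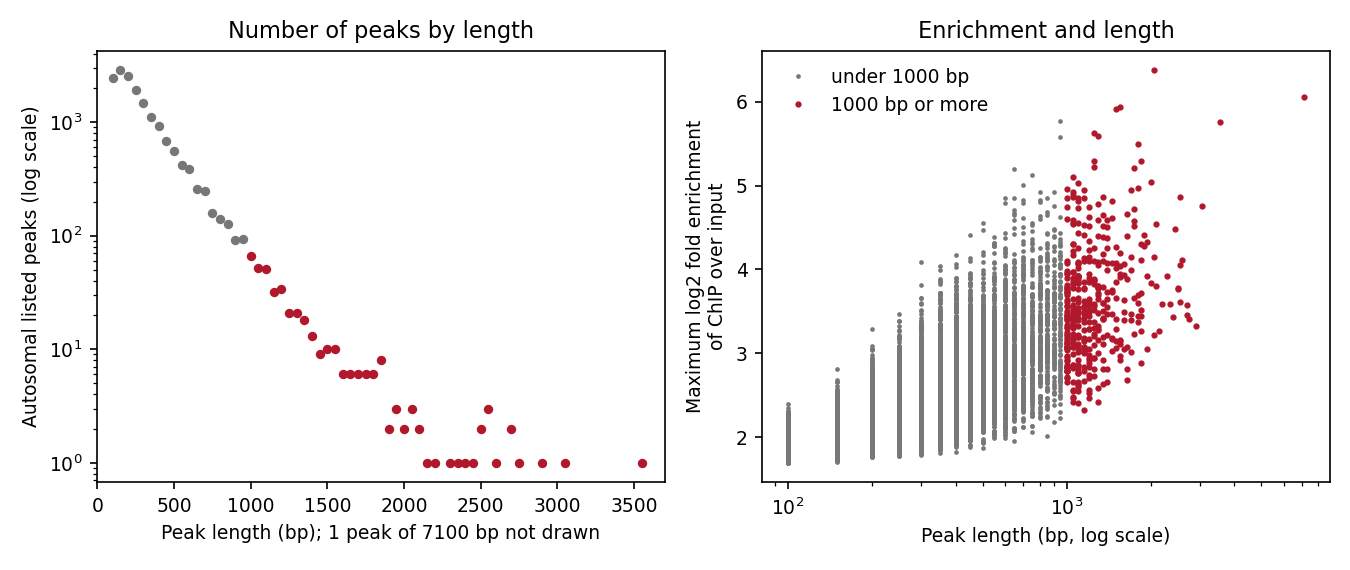
The left plot gives the number of autosomal listed peaks (log scale) at each peak length in bp, and the right plot the maximum log2 fold enrichment of each peak against its length (log scale); red marks the 406 peaks of 1000 bp or more and grey the 16448 shorter ones. There are 93 peaks at 950 bp and 66 at 1000 bp, and long peaks include the most enriched, although the enrichment of both groups overlaps widely.

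The 66 peaks of exactly 1000 bp had a median log2 fold enrichment of 3.31, and the 93 peaks of 950 bp, just outside, had 3.35. Their summits fell in promoter windows in 56.1% and 60.2%, and they held a GLI match in 28.8% and 23.7%. The length threshold thus cuts a continuous range.

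Ptch1, which encodes the Hedgehog receptor and is itself switched on by the pathway, carried the longest broad peak. It lay at chr13:63562500-63569599 with a log2 fold enrichment of 6.05, the second highest of the autosomal peaks, and held 6 GLI matches. A second broad peak of 2000 bp with a log2 fold enrichment of 5.04 lay at chr13:63572450-63574449. Its summit was 7757 bp upstream of the nearest coding TSS of the GENCODE basic set but 106 bp downstream of another Ptch1 start in the full annotation, so it counts here as a non-promoter peak although it covers an annotated start. Within 50 kb of the 5′ end of Ptch1 there were 9 listed peaks, and the other 7 were 100 to 700 bp long.

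Gli1, the transcriptional activator whose expression is the usual readout of Hedgehog activity, carried the second longest peak, of 3550 bp at chr10:127339000-127342549. Its log2 fold enrichment was 5.76, its summit lay 342 bp downstream of the TSS in the 5′ UTR, and it held 6 GLI matches. No other listed peak lay within 10 kb, and only 2, of 100 bp each, lay within 50 kb.

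Cell cycle and growth genes followed. The Cdk6 peak, at a kinase that drives cells out of G1, was 3050 bp long at chr5:3341150-3344199 with a log2 fold enrichment of 4.75 and a summit 1296 bp upstream of the nearest TSS. The Mycn peak, at a growth-promoting transcription factor of the limb mesenchyme, was 2550 bp long with a log2 fold enrichment of 3.61. Neither had a GLI match within 250 bp of the summit, although the Cdk6 peak held 2 matches elsewhere.

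Others of the 12 longest lay at Midn (2900 bp), Tgif1 (2750 bp), Gtf2i and Rarg (2700 bp each), Brd2 and Igf2bp1 (2550 bp each) and Chd3 (2500 bp). Tgif1 encodes a homeodomain corepressor, Brd2 a reader of acetylated histones, Chd3 a chromatin remodeller and Igf2bp1 an mRNA-binding protein. The log2 fold enrichment of these ran from 3.32 at Midn to 4.86 at Brd2, below the values of Ptch1 and Gli1. All 12 had a CpG island within 250 bp of the summit, and 5 of the 12, with Ptch1, Gli1, Tgif1 and Igf2bp1 among them, had a GLI match within that distance.

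Of the 10 broad peaks with the highest enrichment, 5 had the summit in a promoter window. The highest, at 6.37 on the log2 scale, was a 2050 bp peak at chr8:84655250-84657299 that lay 6605 bp downstream of the TSS of Ier2, an immediate-early gene. A 1550 bp peak in an intron of Tmem151a, nearest to the start of Cd248, reached 5.93. A 1500 bp peak 173232 bp downstream of the start of Foxl1, a forkhead factor and Hedgehog target in gut mesenchyme, reached 5.91. The Igf2bp1 gene held a 1850 bp intronic peak at 5.29, 14398 bp past its start, besides the peak at its promoter. Gm12830 (5.63), Dynll1 (5.59), which encodes a dynein light chain, and Thrap3 (5.50) had peaks within 200 bp of a TSS, whereas the Shisal2a peak (5.29) was 20297 bp away. A GLI match was present within 250 bp of 8 of these 10 summits, those of Ier2, Ptch1, Foxl1, Gli1, Gm12830, Dynll1, Thrap3 and Shisal2a, and absent at those of Cd248 and the intronic Igf2bp1 peak.

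Promoter placement was compared by the summit, because a longer interval overlaps a promoter more easily. A promoter window ran from 2 kb before to 1 kb after the TSS of a protein-coding transcript. The summit lay in such a window in 58.1% of broad peaks (236/406, 95% Wilson interval 53.3 to 62.8%) and 47.0% of shorter peaks (7730/16448, 46.2 to 47.8%). The odds ratio was 1.57 (95% interval 1.28 to 1.91; p = 1.12e-05 by a two-sided Fisher's exact test, 1.86e-05 adjusted over 5 tests by Benjamini-Hochberg). Between peaks of like enrichment, in 5 strata of log2 fold enrichment, it was 1.51. The p of the Cochran-Mantel-Haenszel test over these strata was 0.000307. Against peaks of 500 to 950 bp the odds ratio was 1.19 (0.961 to 1.47; p = 0.119 by Fisher's exact test), and there the test was not passed. Peaks of one list are not independent replicates, so these p-values describe counts of peaks in this list.

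The broad promoter peaks belonged to 256 protein-coding genes. They reached from a median of 675 bp upstream to 541 bp downstream of the nearest TSS and covered it in 87.7% (207/236). Shorter promoter peaks reached from 147 bp upstream to 156 bp downstream in the median and covered it in 45.8%, as shorter intervals must do less often. The summit is free of that limit, and in broad promoter peaks it lay upstream of the TSS more often than downstream: its median was 73.5 bp upstream and 35.6% of summits were downstream (84/236, 29.8 to 41.9%). In shorter promoter peaks the median was 0 bp and 49.9% were downstream. This was seen in the data first and was not tested.

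**Figure D2:**
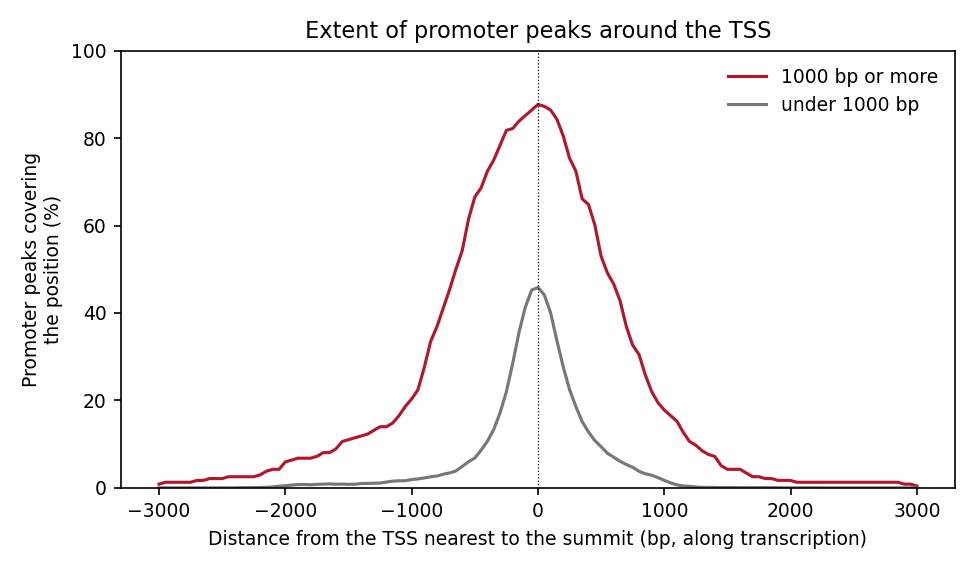
For each distance in bp from the TSS nearest to the summit (negative values upstream), the lines give the percent of promoter peaks whose called interval covers that position, in red for the 236 broad and in grey for the 7730 shorter promoter peaks. Coverage of broad peaks is highest at the TSS (87.7%) and is 66.5% at 500 bp upstream and 53.0% at 500 bp downstream.

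At divergent promoters, where 2 coding genes start within 1 kb of each other and run apart, a single broad peak could span both starts. Such promoters held 8.05% of broad promoter peaks (19/236) and 8.65% of shorter ones (669/7730), with an odds ratio of 0.924 (0.574 to 1.49; p = 0.906 by Fisher's exact test, 0.906 adjusted). The interval leaves room for a difference in either direction. With starts at most 300 bp apart, the shares were 3.39% (8/236) and 6.61%. The odds ratio was 0.496 (0.244 to 1.01), with an unadjusted p of 0.0447 by Fisher's exact test. That interval includes 1. In all, 20 broad peaks (4.93%) and 260 shorter peaks (1.58%) covered starts of 2 genes, and a longer interval covers starts more easily.

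Outside promoter windows lay 170 broad peaks, at a median of 26147 bp from the nearest TSS. Of these, 81 (47.6%) had the summit inside a protein-coding gene, beside 47.0% of shorter non-promoter peaks, an odds ratio of 1.03 (0.757 to 1.39; p = 0.877 by Fisher's exact test, 0.906 adjusted). Across all 406 broad peaks the summit was in an intron in 159, between genes in 133, in a 5′ UTR in 51, in a non-coding gene in 44, in coding sequence in 16 and in a 3′ UTR in 3.

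CpG islands were also more frequent at broad peaks. An island, taken as a 200 bp window with at least 0.5 G and C and an observed to expected CpG ratio above 0.6, lay within 250 bp of the summit in 76.1% of broad (309/406, 71.7 to 80.0%) and 56.6% of shorter peaks (9304/16448). The odds ratio was 2.45 (1.94 to 3.08; p = 7.00e-16 by Fisher's exact test, 3.50e-15 adjusted), and 2.23 within strata of enrichment (Cochran-Mantel-Haenszel p = 2.64e-10). Outside promoter windows 51.8% of broad peaks (88/170) and 24.2% of shorter peaks (2112/8718) had an island, an odds ratio of 3.36 (2.47 to 4.55; p = 2.31e-14 by Fisher's exact test). Inside promoter windows 93.6% and 93.0% had one, an odds ratio of 1.10 (0.649 to 1.87; p = 0.896 by Fisher's exact test). Whether the odds ratios of both classes differ was not tested. The median G and C content within 250 bp of the summit was 63.1% in broad and 55.7% in shorter peaks, and its part in peak length was not tested.

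The GLI match was found within 250 bp of the summit of 131 broad peaks (32.3%, 27.9 to 37.0%) and 2880 shorter ones (17.5%). The odds ratio was 2.24 (1.82 to 2.77; p = 1.62e-12 by Fisher's exact test, 4.05e-12 adjusted). Windows 2 kb to either side held a match in 11.9% at broad peaks and 10.6% at shorter ones, and windows at the 5′ ends of all 20807 annotated autosomal coding genes in 11.3% (2343). Broad peaks outside promoters had a match in 37.6% (64/170) and those in promoters in 28.4% (67/236), beside 19.9% and 14.9% of shorter peaks. An exact consensus was present at 22 broad summits (5.42%) and at 2.09% of shorter ones.

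The difference in matches was smaller between peaks of like enrichment. Within the strata of enrichment the odds ratio was 1.15, and the Cochran-Mantel-Haenszel test was not passed. Its p was 0.287. In the lowest stratum, with log2 fold enrichment from 2.32 to 3.05, 17.3% of 81 broad and 18.4% of 5190 shorter peaks had a match. In the highest, from 4.11 to 6.37, 57.3% of 82 broad and 45.2% of 104 shorter peaks had one. For islands, 79.0% of broad peaks in the lowest and 73.2% in the highest stratum had one, beside 61.7% and 49.0% of shorter peaks.

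**Figure D3:**
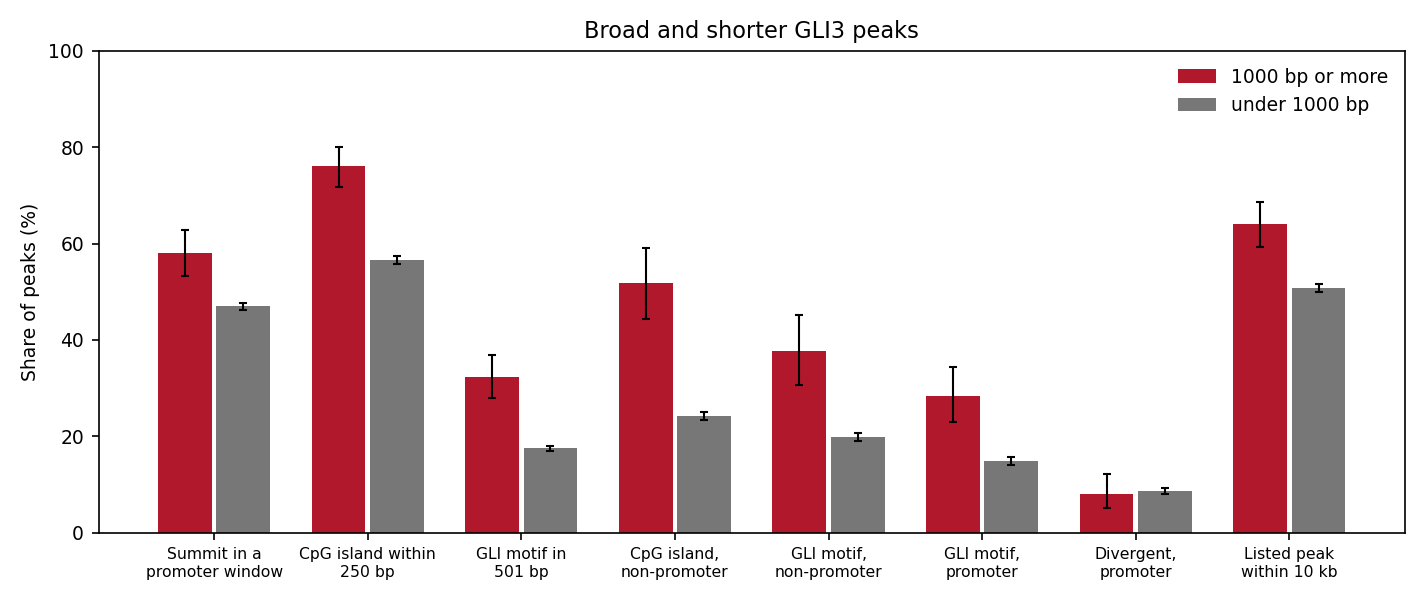
Bars give the percent of broad (red) and shorter (grey) autosomal peaks with each feature, with 95% Wilson intervals as error bars; the labels say where only promoter or only non-promoter peaks are counted. The largest gap is at CpG islands outside promoters (51.8% and 24.2%), and of the 8 pairs drawn only those at divergent promoters have overlapping intervals.

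Counted over the whole peak, broad peaks held 322 GLI matches, 0.599 per kb, and shorter peaks 2351, 0.493 per kb. One broad peak carried 57 of these matches. It lay at chr2:171863250-171864599, 1350 bp long and 179384 bp from the nearest start, that of Cbln4, with a log2 fold enrichment of 2.64 and rank 4031. The 42 exact matches in it all lay on the minus strand, most often 17 bp from one start to the next (14 of 41 spacings), which is a tandem repeat of the consensus. Read placement in this repeat was not tested. Without peaks of 10 or more matches, which are this one and 5 shorter peaks, broad peaks held 265 matches, 0.494 per kb, and shorter peaks 0.472 per kb. The 201 bases around its summit, chr2:171863982-171864182 on the plus strand, show 12 matches in capitals, here as the reverse complement and its variants.
Cbln4 array: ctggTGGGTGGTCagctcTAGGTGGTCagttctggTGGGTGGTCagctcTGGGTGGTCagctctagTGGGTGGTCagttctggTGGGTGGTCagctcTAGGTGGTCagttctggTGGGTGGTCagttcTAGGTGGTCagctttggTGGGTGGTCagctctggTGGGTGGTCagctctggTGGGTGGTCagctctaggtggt

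Of the other broad peaks, those at Ptch1 and Gli1 held the most matches, 6 each. In all 190 of the 406 held at least 1 match anywhere, 56 at least 2 and 12 at least 3. Neither an island nor a match lay within 250 bp of the summit in 60 broad peaks (14.8%), beside 34.2% of shorter peaks.

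Neighbouring peaks were more frequent around broad peaks, which is given without a test because neighbours come from the same libraries and peak calling as the lengths. Another listed peak lay within 10 kb, edge to edge, of 64.0% of broad peaks (260/406, 59.3 to 68.6%) and 50.8% of shorter peaks (8350/16448). Weighted to the enrichment of the broad peaks over 5 strata, the share of shorter peaks was 52.8%. The share was 71.2% for the 170 broad peaks outside promoters, beside 48.7% of such shorter peaks, and 58.9% for the 236 in promoters, beside 53.1%. The median gap to the nearest peak was 1476 bp for broad and 9001 bp for shorter peaks. A gap of at most 500 bp was present at 38.4% and 29.0%. Whether peak calling split wider regions at such gaps was not tested.

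Within 10 kb of broad peaks lay 658 listed peaks, of which 39 were broad and 619 shorter. The shorter neighbours had a median length of 250 bp and a median log2 fold enrichment of 2.23, and 41.7% had an FDR under 0.05 (258/619). The shorter peaks elsewhere had the same median length, a median log2 fold enrichment of 2.21 and 41.3% under that FDR. A summit in a promoter window was present in 39.9% of these neighbours and in 47.3% of shorter peaks elsewhere, a difference that was not tested. At least 4 neighbours were counted at 63 broad peaks (15.5%), beside 8.89% of shorter ones, and the highest count at a broad peak was 14, reached among others at Hoxa9 in the HoxA cluster. At the other end, 64 broad peaks had none within 50 kb.

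**Figure D4:**
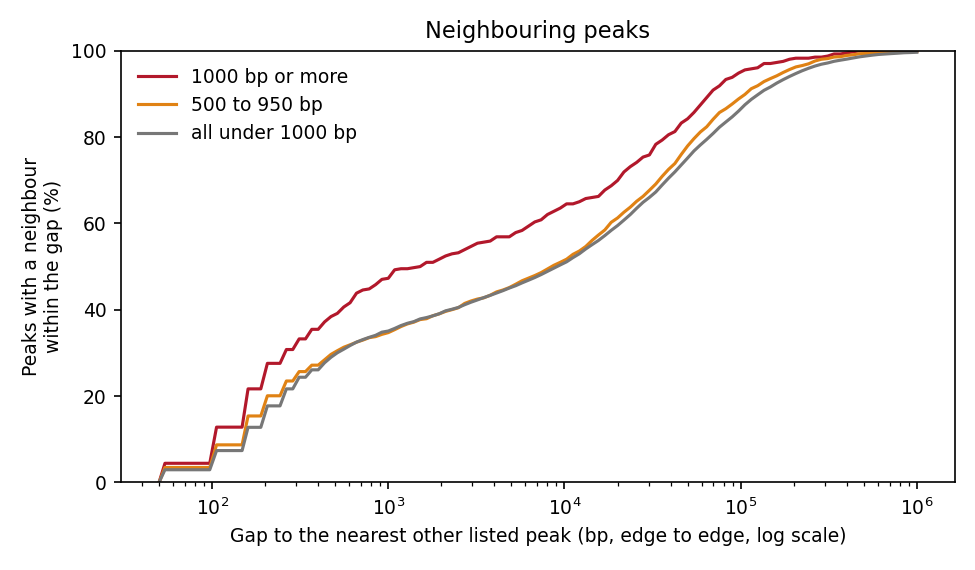
Percent of peaks (vertical axis) whose nearest other listed peak lies within the gap on the horizontal axis (bp, edge to edge, log scale), for broad peaks (red), peaks of 500 to 950 bp (orange) and all peaks under 1000 bp (grey). At 10 kb the red line is at 64.0% and the grey at 50.8%, and the orange line runs close to the grey one.

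Several genes were nearest to more than 1 broad peak: 32 genes to at least 2, and 3 genes to at least 3. Hes1, a repressor downstream of Notch and also of Hedgehog in some tissues, had 4. These were 1350, 1100, 1100 and 1750 bp long, with log2 fold enrichments of 4.10, 3.92, 4.44 and 4.57, and all lay between 1284 bp upstream and 6665 bp downstream of the 5′ end of the annotated gene. The first covered that 5′ end, and the last 2 lay past the end of the gene. Pim1, which encodes a serine/threonine kinase, had 3, with a promoter peak at 4.41 and upstream peaks at 4.74 and 3.15 whose summits were 26576 and 39576 bp from the start. Cxxc5, which encodes a CpG-binding zinc finger protein, was nearest to 4, of 1150 to 2050 bp and with log2 fold enrichments of 3.51 to 4.14. The summits of the 2050 bp peak and of another of 1500 bp lay 44749 and 58199 bp downstream of its start. Ccnd1, which encodes cyclin D1, had 2 adjoining broad peaks of 1400 and 1100 bp in its promoter region with values of 3.65 and 3.61, only 151 bp apart.

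**Figure D5:**
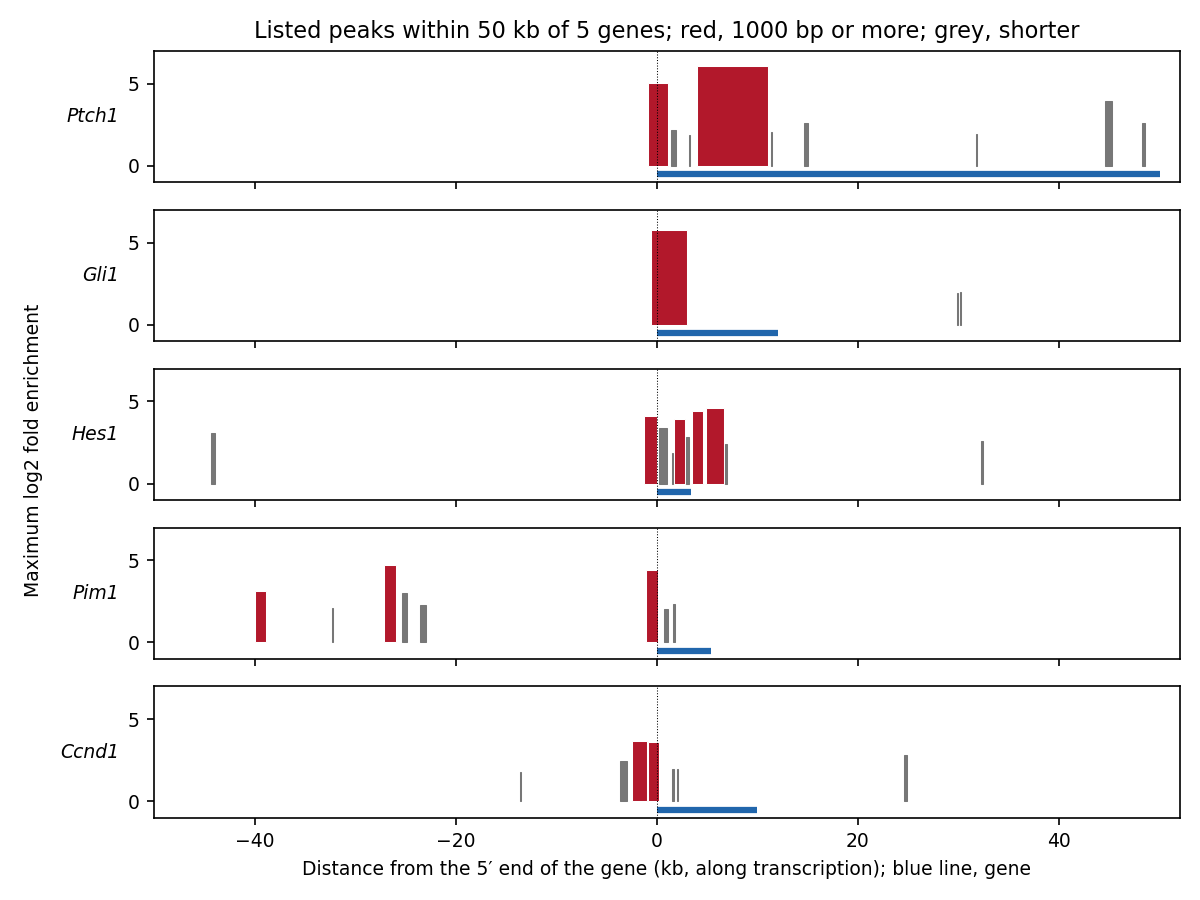
Listed peaks within 50 kb of the 5′ end of 5 genes, drawn to scale as bars from start to end at their distance in kb along transcription, with the maximum log2 fold enrichment as height; red marks peaks of 1000 bp or more and the blue line the gene. Broad peaks are 2 of 9 at Ptch1, 1 of 3 at Gli1, 4 of 10 at Hes1, 3 of 8 at Pim1 and 2 of 7 at Ccnd1.

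Of 18 components of the Hedgehog pathway, 6 had a broad summit in their promoter window (33.3%), 5 had shorter peaks there only, and 7 had neither. Over all 20780 distinct symbols of autosomal coding genes, which some annotated genes share, these shares were 1.23% broad (256) and 30.4% shorter only (6317). Among the 6 were the receptor gene Ptch1, the transcription factor genes Gli1, Gli2 and Gli3, and Gas1, which encodes a co-receptor. Gas1 (1050 bp, log2 fold enrichment 3.86), Gli2 (1250 bp, 3.51) and Gli3 (1250 bp, 2.82) had no match within 250 bp of the summit. Smo, which encodes the signal transducer Smoothened, had a 1000 bp peak with a value of 3.41, 16562 bp upstream of its start. The list was chosen with earlier results of these data known, so this count is a description of it.

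Among 21 limb genes known to respond to Hedgehog signalling, 7 had a broad promoter peak (33.3%) and 9 shorter peaks only. They included Ptch1, Gli1, Cdk6, Mycn, Ccnd1 and Sall1, a zinc finger factor whose peak was 2350 bp long with a value of 3.59. Ccnd2, which encodes cyclin D2, had a 2000 bp peak at 3.84 with its summit 2327 bp upstream of the nearest TSS of the basic set. Hand2, a posterior limb bud factor upstream of Shh, had an 1850 bp peak at 3.45 located 12949 bp past its start, with a GLI match.

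Of 39 limb bud transcription factors, 34 had a promoter peak and 2 of these genes had a broad one, at Sall4 (1250 bp, 2.73) and Hoxa9 (1100 bp, 3.85). That was 5.13% of the list, beside 1.23% of all genes. Among genes with any promoter peak it was 5.88%, beside 3.89% of all such coding genes, and the difference was not tested. Broad peaks elsewhere were nearest to Lmx1b, the dorsal limb determinant, at 60376 bp upstream (3.88), to the forkhead gene Foxf1 at 3679 bp upstream (3.31) and to Foxc1 at 4579 bp downstream in its 3′ UTR (2.66). Of 22 immediate-early genes, 17 had a promoter peak and 0 a broad one, beside 3.89% of all coding genes with a promoter peak. At that share, 17 genes are too few to show a lack of broad peaks. Ier2 and Ier5 (4.81, 16079 bp past its start) were each nearest to a broad peak outside promoter windows.

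Among genes with any promoter peak, 3.89% of all coding genes (256 of 6573) had a broad one. No broad summit lay in the promoter windows of 78 cytosolic ribosomal protein genes (33 with shorter peaks), 67 replication-dependent histone genes (42), 38 proteasome subunit genes (21) or 27 cilium transport genes (11). Of 77 mitochondrial ribosomal protein genes, 44 had a promoter peak and that of Mrpl14 was broad (1100 bp, 4.85), in a window shared with Tmem63b, and a further one of 1350 bp was nearest to Mrpl23. Of 42 splicing and RNA-binding factor genes, 29 had a promoter peak and 2 a broad one. These were Hnrnpa2b1, whose divergent promoter with Cbx3 held 2 broad peaks of 1300 and 1000 bp (3.16 and 2.79), and Hnrnph3 (1000 bp, 3.23). Of the genes with any promoter peak, a broad one was thus present at 54.5% of the pathway components, 43.8% of the Hedgehog-responsive limb genes, 6.90% of the splicing and RNA-binding factors, 5.88% of the limb bud transcription factors and 2.27% of the mitochondrial ribosomal protein genes.

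No trend with length was tested within the broad peaks, and the intervals of the 3 length classes overlap for each of the shares given here. From the peaks under 1500 bp to those under 2000 bp and those of 2000 bp or more, the promoter share was 57.1%, 58.7% and 69.2%, the island share 73.2%, 84.1% and 92.3%, and the GLI match share 31.2%, 33.3% and 42.3%. The exact consensus was present at 5.99%, 1.59% and 7.69%. The last class holds 26 peaks. A neighbour within 10 kb was present at 60.9%, 74.6% and 76.9%. The median log2 fold enrichment of the 3 classes was 3.47, 3.71 and 3.82. The share of listed peaks that were broad ran from 1.63% on chromosome 14 to 3.24% on chromosome 11, and 4 further broad peaks on the X chromosome and none on Y were left out with the sex chromosomes.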

How the data were processed

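Forelimb buds were profiled by ChIP-seq for FLAG-tagged GLI3 (2 libraries) with 1 input. Per the submitters' processing notes, reads were aligned to mm10 with Bowtie2 2.2.5. Per the study's methods, the authors called peaks with CisGenome; how the libraries were combined is not given in the sources used here. The deposited list gives for each peak the authors' log2 fold enrichment over input, a T score, an FDR (a q-value), the minimum Poisson p-value as −log10, and the positions. The methods state a minimum depth, the exact depth of each library is not given in the sources used here, and no value per replicate was used.

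Every listed autosomal peak was kept. Summits were placed against coding transcripts of the GENCODE M21 basic set. Sequences were read from RefSeq's GRCm38 with pysam 0.24.0. Shares were compared by two-sided Fisher's exact tests (SciPy 1.17.1), adjusted over 5 tests by Benjamini-Hochberg, and by Cochran-Mantel-Haenszel tests over 5 strata. Scripts were tested on simulated data. Named genes were those nearest to the 12 longest and the 10 most enriched broad peaks, members of the 10 gene lists with a broad peak (at most 8 valued per list), and genes nearest to 3 or more, with others named where counts are 5 or fewer. The members, lists and rule were chosen with earlier results of these data known. The Cbln4 peak was chosen after its values were seen. Some genes that the rule names are not reported here.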

Additional observations from a re-analysis of the deposited data

How the results depend on the processing

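Of 49 alternative settings of the 5 tested results, 41 left direction and side of the threshold unchanged. Of 10 settings of the untested neighbour share and number of broad peaks, 4 left the value within its interval or 1.5 times. With only peaks of FDR under 0.05, the promoter odds ratio was 1.33 (95% interval 1.09 to 1.63). The island and GLI match odds ratios were then 2.01 and 1.89. The promoter difference was not passed against peaks of 500 to 950 bp (odds ratio 1.19). The GLI match difference was not passed within 5 strata of enrichment (1.15), and in windows 2 kb before and after the summit, added after the data were seen as local background, it was 1.25 and 1.04. The island difference was not passed inside promoter windows (1.10, added after the data were seen). Divergent starts within 300 bp gave an odds ratio of 0.496, past the threshold where that at 1 kb was not. Its 95% interval, 0.244 to 1.01, nevertheless included 1. The share of non-promoter summits inside genes, not past the threshold in any setting, changed direction with broad peaks from 800 bp (0.934) or from 1500 bp (0.790). The cause was not tested. By the construction of the setting, the neighbour share of broad peaks was 57.1% within 5 kb and 84.2% within 50 kb. It was 43.3% with only neighbours of FDR under 0.05 and 36.0% after peaks within 1 kb were merged. For shorter peaks these 4 shares were 45.1%, 75.2%, 31.0% and 25.5%. The number of broad peaks was 859 from 800 bp and 89 from 1500 bp. Starts of coding transcripts outside the basic set, added after the data were seen, gave a promoter odds ratio of 1.68 and moved 11 more broad peaks into promoter windows. No paired analysis was possible because no value per library was in the peak list, and leaving out a replicate could not be run for the same reason. The absence of a depth and a value per library limits how far peak length can be separated from enrichment.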

Other observations

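Among the 11 broad peaks that entered a promoter window only when coding transcripts outside the basic set were counted, the most enriched were at Ptch1 (rank 19), Adamts1 (rank 70), with a summit 74 bp past a start, and at a start of Por (rank 155), with a summit 56 bp upstream although the nearest start of the basic set was that of Tmem120a at 18776 bp. The others included Ccnd2, Hoxa7, Midn, Atxn2, Vcan and Mnt. They were chosen after their values were seen.

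Many matches in a single peak were also found among shorter peaks: 5 held 10 or more, and the highest count in a shorter peak was 54.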
